A study of Mus musculus with 9 samples.

Results

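The 42 genes described here encode claudins, cadherins and tight junction proteins, the molecules with which neighbouring cells hold on to each other and seal the space between them. They were taken by symbol from the 38560 genes of the deposited count table: 19 claudins, 17 cadherins, and 6 others, namely occludin (Ocln), the scaffold proteins Tjp1 and Tjp3, and the junctional adhesion molecules F11r, Jam2 and Jam3. The related genes Cldn5, Cdh1, Cdh5 and Cdh16 are outside this list. The rule for the list used symbols and no expression value, but the list was drawn up with earlier results of these data known. Of the 42 genes, 37 had enough reads to be tested, and Cldn14, Cldn16, Cldn18, Cldn22 and Cdh9 did not.

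The samples were 3 cell populations that the labels name Leydig, Interstitial and Sertoli, sorted by flow cytometry from testes of mouse embryos of an Sf1-eGFP strain at 12.5 days post coitum. In this strain a green fluorescent protein reports on SF1 (Nr5a1), a transcription factor of steroid-making and supporting cells of the gonad, so all 3 populations came from embryos with the same transgene. Per the labels' protocols, gonads were recognised as testes by their cords, and antibody staining for CD31, which marks endothelial and germ cells, was used to take those cells out. The labels do not state the gates that set the 3 populations apart. Each population has 3 libraries, A, B and C, and each sample pooled litters from about 10 days of sorting. The protocols describe pools A and B and a mixture of them. Replicate C was taken by elimination as the mixture, so the tests rest on A and B of each population, and C is shown beside them. According to its title, the study set out to purify fetal Leydig cells and to find candidate genes for disorders of sex development.

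Tight junctions are belts of claudin and occludin strands near the top of epithelial cells. The claudins present decide which ions and solutes can pass between the cells, and cytoplasmic scaffolds such as ZO-1 (Tjp1) tie the strands to actin. Adherens junctions lie beside them and are built from cadherins, which bind cadherins on the next cell through calcium-dependent repeats. In the testis, Sertoli cells enclose the germ cells in cords and in the adult form the blood-testis barrier, whose tight junctions contain claudin-11. Fetal Leydig cells and the other interstitial cells lie outside the cords.

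Libraries held between 33123254 and 39244060 reads in genes, and levels are given as CPM, the usual count of a gene's reads scaled to a common library total. CPM are given after TMM scaling, which corrects for differences in library make-up. The floor used here, 3 reads, corresponds to between 0.0742 and 0.0902 CPM on that scale. Differences are given as log2 with a standard error (SE). This SE was derived from the test, as the size of the log2 difference divided by the square root of its F statistic. A gene was called changed at an adjusted p under 0.05 from edgeR's quasi-likelihood test, with Benjamini-Hochberg adjustment over 18048 genes. With 2 pools per population, the p-values reflect how far these pools differ and nothing wider. The Sertoli markers, 8 genes including Amh and Sox9, summed to between 1052 and 1106 CPM in the Leydig, 135 and 158 CPM in the Interstitial and 3593 and 3778 CPM in the Sertoli libraries. The 6 fetal Leydig markers, including Star, Cyp11a1 and Insl3, summed to between 236 and 447 CPM in the Leydig libraries, 42.2 to 65.8 CPM in the Interstitial libraries and 251 to 300 CPM in the Sertoli libraries. None of these 6 was called between the Leydig and Sertoli sorts, so the populations are named here after their sorts. The Interstitial libraries were also highest for markers of several other cell types, among them 9 erythroid genes that summed to 151 to 533 CPM in Leydig, 13169 to 13656 CPM in Interstitial and 153 to 430 CPM in Sertoli libraries.

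**Figure D1:**
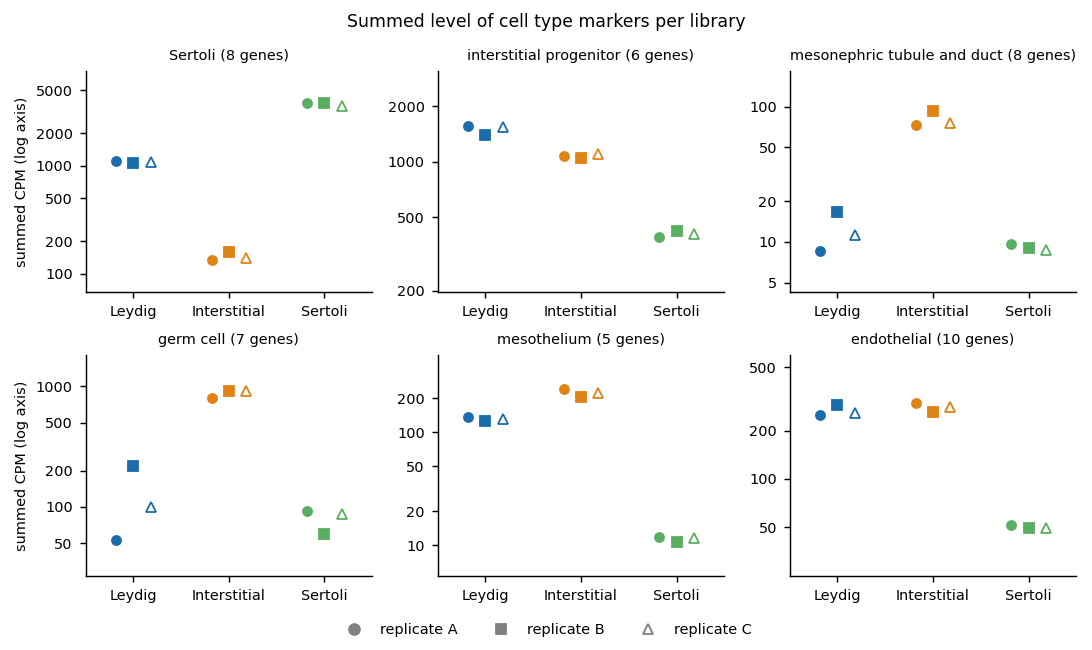
Summed CPM (TMM-scaled, log axis) of 6 marker lists in the 9 libraries, with 1 point per library (circle A, square B, open triangle C) and the populations in the order Leydig, Interstitial, Sertoli. The Sertoli libraries lie highest for Sertoli markers and lowest for progenitor, endothelial and mesothelial markers, and the Interstitial libraries lie highest for germ cell, mesonephric and mesothelial markers.

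The 250 bases before an annotated transcription start of 4 claudin genes are shown as examples of both directions of the claudin contrasts: Cldn11 was highest in the Sertoli sort, and Cldn3, Cldn4 and Cldn7 were highest in the Interstitial sort. The sequences are RefSeq's on GRCm38.p6, written 5′ to 3′ on the strand of the gene, and capitals mark the motif matches described after them. The windows are chr3:31149670-31149919 on the plus strand for Cldn11, chr5:134985964-134986213 on the plus strand for Cldn3, chr5:134946935-134947184 on the minus strand for Cldn4 and chr11:69964529-69964778 on the plus strand for Cldn7.
Cldn11: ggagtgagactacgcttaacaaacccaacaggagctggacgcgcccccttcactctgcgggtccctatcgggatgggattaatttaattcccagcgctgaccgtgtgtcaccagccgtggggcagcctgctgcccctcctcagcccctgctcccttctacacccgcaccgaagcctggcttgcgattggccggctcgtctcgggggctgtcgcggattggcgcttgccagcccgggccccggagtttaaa
Cldn3: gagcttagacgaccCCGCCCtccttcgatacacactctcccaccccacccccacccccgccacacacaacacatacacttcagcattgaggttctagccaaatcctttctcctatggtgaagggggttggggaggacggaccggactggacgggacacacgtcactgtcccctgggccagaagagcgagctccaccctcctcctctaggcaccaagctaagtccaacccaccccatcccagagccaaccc
Cldn4: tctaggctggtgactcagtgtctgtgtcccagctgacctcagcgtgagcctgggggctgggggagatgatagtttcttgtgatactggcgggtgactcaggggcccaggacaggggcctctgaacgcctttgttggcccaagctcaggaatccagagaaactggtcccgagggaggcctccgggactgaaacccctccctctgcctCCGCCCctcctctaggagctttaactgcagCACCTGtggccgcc
Cldn7: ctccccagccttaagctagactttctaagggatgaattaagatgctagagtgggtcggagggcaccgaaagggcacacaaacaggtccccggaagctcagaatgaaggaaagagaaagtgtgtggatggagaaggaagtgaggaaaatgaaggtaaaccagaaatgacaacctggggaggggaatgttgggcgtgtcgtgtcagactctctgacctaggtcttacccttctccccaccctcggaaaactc

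In these windows 7 short motifs were searched on both strands. The core bound by SOX factors, spelled AACAAT and present in 9.42% of 32851 promoter windows of the same length, had no match in any of the 4. The GATA factor core AGATAA, found in 9.99% of windows, was likewise not in these letters. Neither was the SF1 core CAAGGTC, found in 3.32% of windows. The core of grainyhead-like factors, AACCNGTT, is rarer, at 1.79% of windows, and also had no match. The TATA box TATAAA, found in 12.4% of windows, was not matched either. The GC box GGGCGG, found in 32.7% of windows, occurred on the opposite strand in Cldn3, starting 236 bases before the start, and in Cldn4, 44 bases before it. The E-box of Snail-type repressors, CAGGTG, present in 17.2% of windows, occurred on the opposite strand in Cldn4, 14 bases before the start. No matches overlapped each other. RefSeq lists a second Cldn7 start, 642 bases further along the gene, whose window, not shown, held 1 GC box and 2 of these E-boxes and none of the other motifs. The Cldn11 window is 63.6% G and C, the Cldn3 window 60.8%, the Cldn4 window 62.0% and the Cldn7 window 51.2%. Cldn3 and Cldn4 are neighbours on chromosome 5, 39.3 kb apart and pointing away from each other, with Cldn4 on the minus strand.

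Members were called in both directions in each comparison. Between the Leydig and Interstitial sorts 29 of the 37 members tested were called, 9 higher and 20 lower in Leydig, with a median log2 difference of -0.68; of all genes tested 45.1% were called, with a median of 0.01. Between the Leydig and Sertoli sorts 17 members were called, 8 higher and 9 lower in Leydig, with a median of 0.08; of all genes 37.5% were called, with a median of -0.01. Between the Interstitial and Sertoli sorts 32 members were called, 22 higher and 10 lower in Interstitial, with a median of 1.66; of all genes 61.8% were called, with a median of 0.04. These comparisons share their libraries, and a low gene can enter the test only through the population where it is high, so the counts describe the 37 genes and not the 42. Of members called with at least a 2-fold difference, 4 were higher and 17 lower in Leydig than in Interstitial, against a background of 15.3% of all genes in both directions. Likewise 4 were higher and 6 lower in Leydig than in Sertoli (background 13.7%), and 19 were higher and 7 lower in Interstitial than in Sertoli (background 27.9%).

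Claudins and cadherins were counted apart, and the difference between these families was not tested. Of the 15 claudins tested, 2 were called higher and 10 lower in Leydig than in Interstitial, 1 higher and 4 lower in Leydig than in Sertoli, and 10 higher and 4 lower in Interstitial than in Sertoli. Of the 16 cadherins tested, 5 were called higher and 7 lower in Leydig than in Interstitial, 6 higher and 3 lower in Leydig than in Sertoli, and 9 higher and 3 lower in Interstitial than in Sertoli. Cldn8, Cldn10, Cldn19, Cdh7, Cdh15, Cdh18 and Cdh22 could enter the test only through the Interstitial libraries, where they are high. Cldn20 and Cldn23 could enter only through the Sertoli libraries. The filter thus had a part in the direction of their calls. With the 1 CPM filter, 9 members were higher and 13 lower in Leydig than in Interstitial. Of all genes tested, 22.0% were called higher and 23.2% lower in Leydig than in Interstitial. The shares were 16.9% and 20.6% for Leydig against Sertoli, and 32.7% and 29.1% for Interstitial against Sertoli. Among the 17 of 42 members that reached 5 CPM in at least 1 population, the calls were 7 higher and 7 lower for Leydig against Interstitial, 5 and 8 for Leydig against Sertoli, and 9 and 8 for Interstitial against Sertoli. The median log2 differences of these 17 were -0.07, -0.52 and 0.56 in the same order, against -0.68, 0.08 and 1.66 over the 37 tested. In bulk RNA of sorted pools, a smaller number of cells that express a gene and less RNA in each of them cannot be told apart.

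**Figure D2:**
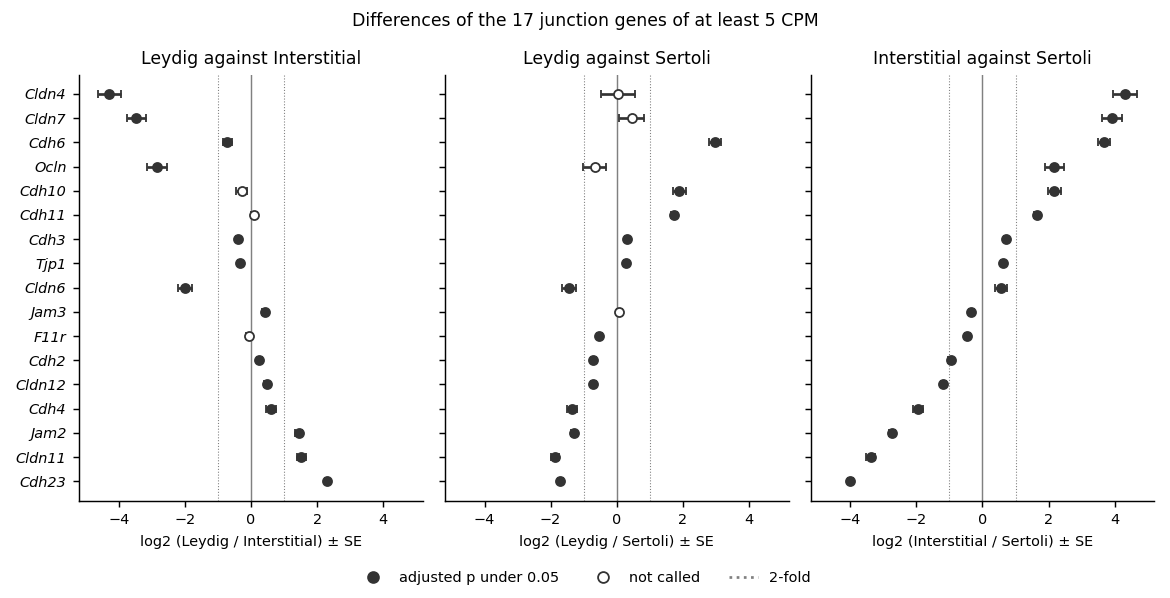
Log2 difference of the 17 members of at least 5 CPM in the 3 comparisons (Leydig minus Interstitial, Leydig minus Sertoli, Interstitial minus Sertoli). Bars are the SE derived from the edgeR test. Filled points were called and open points were not, and dotted lines mark 2-fold. Values above 0 are higher in the population named first in each title; Cldn11, Cdh23 and Jam2 were called in all 3 comparisons, below 0 against Sertoli and above 0 for Leydig against Interstitial.

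The members highest in the Sertoli sort included claudin-11, cadherin-23 and JAM-B, and each of them was at an intermediate level in the Leydig sort. Cldn11 (ENSMUSG00000037625, chr3:31149920-31164324, plus strand) encodes claudin-11, which forms the tight junctions of Sertoli cells and of myelin. Its level was 16.8, 15.8 and 18.1 CPM in Leydig A, B and C, 6.43, 4.95 and 6.34 CPM in Interstitial A, B and C, and 60.3, 54.3 and 57.6 CPM in Sertoli A, B and C. The 3 populations did not overlap. Cldn11 was higher in Leydig than in Interstitial by 1.53 ± 0.13 (log2 ± SE, adjusted p = 5.4e-05), 3.62-fold lower in Leydig than in Sertoli (log2 -1.86 ± 0.12, adjusted p = 6.98e-06) and 10.4-fold lower in Interstitial than in Sertoli (log2 -3.38 ± 0.13, adjusted p = 1.14e-07).

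Cdh23 (ENSMUSG00000012819, chr10:60302748-60696490, minus strand), an unusually long cadherin known from the tip links of inner ear hair cells, showed the widest gap among the members of at least 5 CPM that were lower in Interstitial than in Sertoli. It had 62.7, 63.0 and 64.8 CPM in the Leydig libraries A, B and C, 12.2, 13.6 and 9.40 CPM in the Interstitial libraries and 199, 199 and 188 CPM in the Sertoli libraries. Replicates lay close together and the populations were far apart. The difference was 2.30 ± 0.07 for Leydig against Interstitial (4.92-fold, adjusted p = 4.74e-07), -1.70 ± 0.07 for Leydig against Sertoli (3.26-fold lower, adjusted p = 1.21e-06) and -4.00 ± 0.08 for Interstitial against Sertoli (16.0-fold lower, adjusted p = 6.34e-09).

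Jam2 (ENSMUSG00000053062, chr16:84774123-84825928, plus strand), which encodes the immunoglobulin-like adhesion molecule JAM-B, followed the same order. Its levels were 15.2, 14.7 and 14.0 CPM in Leydig, 5.52, 5.65 and 5.57 CPM in Interstitial and 37.5, 34.5 and 35.9 CPM in Sertoli libraries. It was 2.71-fold higher in Leydig than in Interstitial (log2 1.44 ± 0.10, adjusted p = 1.53e-05), 2.47-fold lower in Leydig than in Sertoli (log2 -1.31 ± 0.09, adjusted p = 9.7e-06) and 6.71-fold lower in Interstitial than in Sertoli (log2 -2.75 ± 0.10, adjusted p = 7.27e-08).

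Claudin-12 and R-cadherin were also highest in the Sertoli sort. Cldn12 (ENSMUSG00000046798, chr5:5489537-5514958, minus strand) had 35.9, 36.8 and 35.7 CPM in Leydig, 25.8, 26.9 and 27.7 CPM in Interstitial and 56.7, 58.6 and 55.6 CPM in Sertoli libraries. Its log2 difference was 0.48 ± 0.07 for Leydig against Interstitial (adjusted p = 0.000844), -0.71 ± 0.07 for Leydig against Sertoli (adjusted p = 7.15e-05) and -1.18 ± 0.07 for Interstitial against Sertoli (adjusted p = 1.49e-06). Cdh4 (ENSMUSG00000000305, chr2:179442431-179899373, plus strand), which encodes R-cadherin, had 4.93, 5.24 and 4.76 CPM in Leydig, 3.04, 3.78 and 2.24 CPM in Interstitial and 12.7, 12.6 and 12.1 CPM in Sertoli libraries. The Sertoli libraries thus stood clear of both other sorts for Cdh4, with Leydig 2.55-fold lower (log2 -1.35 ± 0.14, adjusted p = 0.000114) and Interstitial 3.85-fold lower (log2 -1.95 ± 0.15, adjusted p = 7.14e-06). Between Leydig and Interstitial the Cdh4 difference was 0.60 ± 0.15 (adjusted p = 0.0129); without Interstitial replicate A it was 0.43 and not called (adjusted p = 0.097).

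N-cadherin and JAM-A, both abundant in all 3 populations, were also highest in the Sertoli sort, by less than 2-fold. Cdh2, which encodes N-cadherin, ranged from 64.3 to 67.3 CPM in Leydig, 52.0 to 58.7 CPM in Interstitial and 99.2 to 109 CPM in Sertoli libraries, with its largest difference in Interstitial against Sertoli (log2 -0.95 ± 0.08, adjusted p = 9.82e-06). Its difference between Leydig and Interstitial (log2 0.24 ± 0.08, adjusted p = 0.0298) was not called with library-size scaling alone (adjusted p = 0.115) or without Leydig A (adjusted p = 0.0636), Leydig B (adjusted p = 0.096) or Interstitial B (adjusted p = 0.258). F11r, which encodes JAM-A, ranged from 59.2 to 63.9 CPM in Leydig, 62.4 to 69.2 CPM in Interstitial and 80.6 to 88.4 CPM in Sertoli libraries. For F11r the largest difference was that between Leydig and Sertoli (log2 -0.52 ± 0.07, adjusted p = 0.000527), and Leydig was not called against Interstitial (log2 -0.07 ± 0.07, adjusted p = 0.468).

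Among the low claudins, Cldn23 had 0.481, 0.173 and 0.541 CPM in Leydig, 0.148, 0.0873 and 0.199 CPM in Interstitial and 1.54, 1.20 and 2.10 CPM in Sertoli libraries. It was called lower than Sertoli in Leydig (log2 -2.11 ± 0.43, adjusted p = 0.00488) and in Interstitial (log2 -3.54 ± 0.51, adjusted p = 0.000333); the Leydig difference was -3.01 without Leydig replicate A and -1.50 without Leydig replicate B, called in both. Cldn20, at most 0.561 CPM in any library, was called only as lower in Interstitial than in Sertoli (log2 -2.35 ± 0.48, adjusted p = 0.00263). All 8 Sertoli markers were called higher in Leydig than in Interstitial, lower in Leydig than in Sertoli and lower in Interstitial than in Sertoli. Cldn11, Cldn12, Cdh23, Cdh4, Cdh2 and Jam2 were called in the same directions. F11r, Cldn20 and Cldn23 were not called between Leydig and Interstitial, and Cldn20 was also not called between Leydig and Sertoli. The part of the Sertoli markers in these results was not tested.

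**Figure D3:**
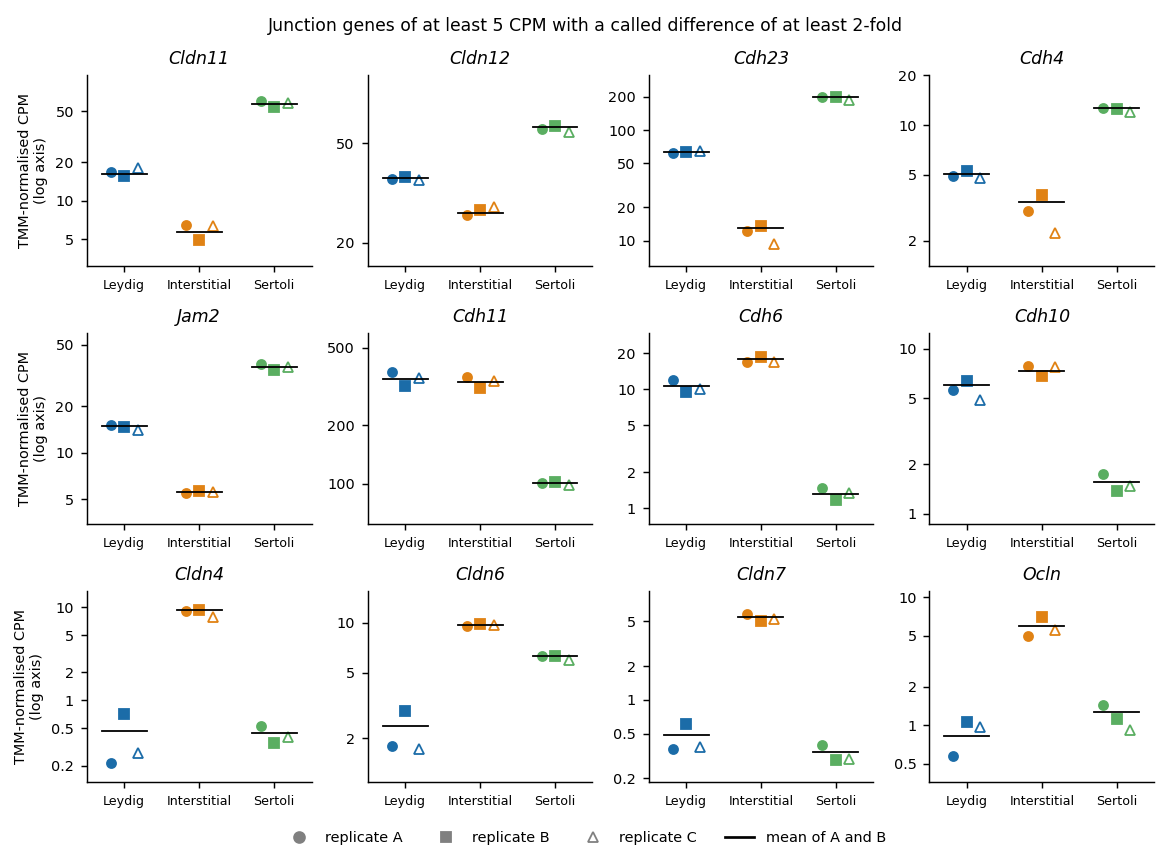
CPM (TMM-scaled, log axis) of the 12 members of at least 5 CPM with a called difference of at least 2-fold, with 1 point per library (circle A, square B, open triangle C), a line at the mean of A and B, and the populations in the order Leydig, Interstitial, Sertoli. Cldn11, Cldn12, Cdh23, Cdh4 and Jam2 lie highest in Sertoli libraries, Cldn4, Cldn6, Cldn7 and Ocln highest in Interstitial libraries, and Cdh11, Cdh6 and Cdh10 lowest in Sertoli libraries.

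Among the members highest in the Interstitial sort were claudins typical of epithelia, together with occludin and ZO-3. Tjp1 and several cadherins, among them Cdh3 and Cdh6, were also highest there and are described after the claudins. Cldn4 (ENSMUSG00000047501, chr5:134945119-134946934, minus strand) encodes claudin-4, a barrier-forming claudin of many epithelia. Its level was 0.211, 0.720 and 0.271 CPM in Leydig A, B and C, 9.18, 9.43 and 7.81 CPM in Interstitial and 0.533, 0.352 and 0.404 CPM in Sertoli libraries. The Interstitial libraries were far above all others, while Leydig and Sertoli libraries overlapped. Cldn4 was 19.5-fold lower in Leydig than in Interstitial (log2 -4.28 ± 0.36, adjusted p = 5.19e-05) and 20.0-fold higher in Interstitial than in Sertoli (log2 4.32 ± 0.36, adjusted p = 1.33e-05). Leydig replicate B carried much of the Leydig level: the difference from Interstitial was -5.44 without it and -3.67 without Leydig replicate A. Leydig was not called against Sertoli (log2 0.04 ± 0.50, adjusted p = 0.962).

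Cldn7 (ENSMUSG00000018569, chr11:69964779-69967885, plus strand), which encodes an epithelial claudin also found along lateral membranes, gave similar values. It had 0.361, 0.605 and 0.379 CPM in Leydig, 5.86, 5.03 and 5.25 CPM in Interstitial and 0.393, 0.293 and 0.296 CPM in Sertoli libraries. Leydig was 11.1-fold lower than Interstitial (log2 -3.47 ± 0.28, adjusted p = 3.94e-05), and Interstitial was 15.1-fold higher than Sertoli (log2 3.92 ± 0.29, adjusted p = 6.64e-06). Leydig and Sertoli were not called apart (log2 0.45 ± 0.38, adjusted p = 0.405).

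Cldn6 (ENSMUSG00000023906, chr17:23679249-23682446, plus strand), which encodes a claudin of embryonic epithelia, was the exception in that the Sertoli sort also held it. Its levels were 1.80, 2.94 and 1.73 CPM in Leydig, 9.55, 9.78 and 9.70 CPM in Interstitial and 6.26, 6.34 and 5.95 CPM in Sertoli libraries. The Leydig sort was lowest, 4.02-fold below Interstitial (log2 -2.01 ± 0.21, adjusted p = 0.000141) and 2.72-fold below Sertoli (log2 -1.45 ± 0.21, adjusted p = 0.000723). Interstitial was 1.48-fold above Sertoli (log2 0.56 ± 0.19, adjusted p = 0.0285), a call that was lost without any single Interstitial or Sertoli library, A or B (adjusted p between 0.0657 and 0.122). The neighbouring Cldn9, whose annotated end lies 137 bases from that of Cldn6 on the opposite strand, had 4, 9 and 9 reads in Leydig, 32, 17 and 39 reads in Interstitial and 16, 10 and 26 reads in Sertoli libraries. Cldn9 was called lower in Leydig than in Interstitial (log2 -1.73 ± 0.49, adjusted p = 0.0194), but not with DESeq2 or without Leydig A or Interstitial A (adjusted p between 0.0892 and 0.133), and the difference was -2.39 without Leydig B.

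Ocln (ENSMUSG00000021638, chr13:100496507-100552718, minus strand), which encodes occludin, a membrane protein of tight junction strands, had 0.572, 1.07 and 0.974 CPM in Leydig, 5.00, 7.04 and 5.57 CPM in Interstitial and 1.43, 1.12 and 0.915 CPM in Sertoli libraries. It was 7.20-fold lower in Leydig than in Interstitial (log2 -2.85 ± 0.31, adjusted p = 0.000194) and 4.52-fold higher in Interstitial than in Sertoli (log2 2.18 ± 0.29, adjusted p = 0.000232). Leydig was not called against Sertoli (log2 -0.67 ± 0.35, adjusted p = 0.176). Tjp3, which encodes the epithelial scaffold ZO-3, had 0.421, 1.53 and 0.595 CPM in Leydig, 3.64, 3.81 and 2.93 CPM in Interstitial and 1.29, 0.939 and 0.915 CPM in Sertoli libraries. It was lower in Leydig than in Interstitial (log2 -1.91 ± 0.43, adjusted p = 0.00711), with -3.13 without Leydig replicate B and -1.26 without Leydig replicate A, called in both. It was higher in Interstitial than in Sertoli (log2 1.68 ± 0.42, adjusted p = 0.00773), a call lost without Sertoli replicate B (adjusted p = 0.0702).

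Cldn3, Cldn1 and Cldn2 were rarer and were also highest in the Interstitial libraries. Cldn3, the barrier-forming neighbour of Cldn4, had 0.180, 0.605 and 0.135 CPM in Leydig, 2.42, 2.21 and 2.34 CPM in Interstitial and 0.281, 0.411 and 0.242 CPM in Sertoli libraries. Leydig was lower than Interstitial (log2 -2.53 ± 0.42, adjusted p = 0.00156), with -3.65 without Leydig replicate B and -1.92 without Leydig replicate A. Cldn1, a claudin of the skin barrier, reached 2.55 CPM in Interstitial libraries, and Cldn2, which forms a cation pore, reached 4.02 CPM there. Both were called lower in Leydig than in Interstitial (log2 -1.75 ± 0.29 for Cldn1 and -1.41 ± 0.25 for Cldn2, adjusted p = 0.00142 and 0.00201) and higher in Interstitial than in Sertoli (log2 2.68 ± 0.32 and 2.11 ± 0.26, adjusted p = 0.000107 and 0.000146).

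Cldn8 and Cldn10, both claudins of kidney tubules, had few reads outside the Interstitial libraries. Cldn8 had 0, 5 and 0 reads in Leydig, 116, 78 and 125 reads in Interstitial and no read in any Sertoli library, which makes it at least 29.8-fold higher in Interstitial than in Sertoli at a floor of 3 reads per library. It was called in that comparison (adjusted p = 0.000108) and lower in Leydig than in Interstitial (adjusted p = 0.000509), the second of these not with DESeq2 (adjusted p = 0.0765). Cldn10 had 0, 0 and 3 reads in Leydig, 33, 37 and 36 reads in Interstitial and 0, 2 and 1 reads in Sertoli libraries, and was called lower in Leydig than in Interstitial (adjusted p = 0.000716) and higher in Interstitial than in Sertoli (adjusted p = 0.000591). Cldn19, at most 0.786 CPM, was called for both differences (adjusted p = 0.0443 and 0.0151), and neither call held with DESeq2 (adjusted p = 0.164 and 0.0567). The Cldn19 call between Leydig and Interstitial was also lost without Leydig A (log2 -0.91, against -3.38 without Leydig B) and without any single Interstitial or Sertoli library, A or B, and that between Interstitial and Sertoli without Interstitial B, Sertoli A or Sertoli B.

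Other cell types' markers were also highest in the Interstitial sort. The 8 markers of mesonephric tubule and duct epithelium summed to 8.51 to 16.6 CPM in Leydig, 72.6 to 92.1 CPM in Interstitial and 8.75 to 9.71 CPM in Sertoli libraries. The 7 germ cell markers summed to 53.2 to 219 CPM in Leydig, 801 to 912 CPM in Interstitial and 60.1 to 92.4 CPM in Sertoli libraries, and the 5 mesothelial markers to 125 to 136, 203 to 242 and 10.7 to 11.9 CPM in the same order. All 8 mesonephric, all 7 germ cell and all 5 mesothelial markers were called lower in Leydig than in Interstitial and higher in Interstitial than in Sertoli. None of these markers was at 0 in any population. Their part in the claudin and occludin results was not tested.

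Several members were lowest in the Sertoli sort, among them some of the abundant cadherins. Cdh11 (ENSMUSG00000031673, chr8:102632095-102785642, minus strand), which encodes OB-cadherin, a cadherin of mesenchymal cells, was the most abundant member in CPM in the Leydig and Interstitial libraries. Its levels were 375, 320 and 352 CPM in Leydig, 353, 312 and 340 CPM in Interstitial and 101, 102 and 99.0 CPM in Sertoli libraries. Leydig and Interstitial libraries overlapped and were not called apart (log2 0.08 ± 0.09, adjusted p = 0.502). The Sertoli libraries were lower: Cdh11 was 3.34-fold higher in Leydig than in Sertoli (log2 1.74 ± 0.09, adjusted p = 3.15e-06) and 3.16-fold higher in Interstitial than in Sertoli (log2 1.66 ± 0.09, adjusted p = 1e-06).

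Cdh6 (ENSMUSG00000039385, chr15:13028701-13173675, minus strand), which encodes K-cadherin, known from the developing kidney, had 12.0, 9.42 and 10.1 CPM in Leydig, 17.0, 18.6 and 16.8 CPM in Interstitial and 1.49, 1.17 and 1.35 CPM in Sertoli libraries. The populations did not overlap. Cdh6 was 1.64-fold lower in Leydig than in Interstitial (log2 -0.72 ± 0.15, adjusted p = 0.00433), 7.80-fold higher in Leydig than in Sertoli (log2 2.96 ± 0.19, adjusted p = 6.85e-06) and 12.8-fold higher in Interstitial than in Sertoli (log2 3.68 ± 0.18, adjusted p = 5.49e-07). Cdh10 (ENSMUSG00000022321, chr15:18818947-19014236, plus strand), a type II cadherin best known from the brain, had 5.60, 6.40 and 4.90 CPM in Leydig, 7.84, 6.81 and 7.71 CPM in Interstitial and 1.74, 1.38 and 1.48 CPM in Sertoli libraries. It was 3.73-fold higher in Leydig than in Sertoli (log2 1.90 ± 0.19, adjusted p = 8.66e-05) and 4.51-fold higher in Interstitial than in Sertoli (log2 2.17 ± 0.19, adjusted p = 1.68e-05). Leydig was not called against Interstitial for Cdh10 (log2 -0.28 ± 0.17, adjusted p = 0.212), but was with replicate C counted as a further replicate (log2 -0.41, adjusted p = 0.0101).

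P-cadherin and ZO-1 were abundant everywhere, and their differences were under 2-fold. Cdh3, which encodes P-cadherin, ranged from 102 to 107 CPM in Leydig, 127 to 140 CPM in Interstitial and 76.9 to 81.5 CPM in Sertoli libraries, with the largest difference in Interstitial against Sertoli (log2 0.70 ± 0.06, adjusted p = 1.18e-05). Tjp1 ranged from 159 to 169 CPM in Leydig, 208 to 213 CPM in Interstitial and 132 to 135 CPM in Sertoli libraries, again with the largest difference in Interstitial against Sertoli (log2 0.61 ± 0.06, adjusted p = 2.82e-05). Jam3, which encodes JAM-C, ranged from 41.9 to 42.6 CPM in Leydig, 31.6 to 34.0 CPM in Interstitial and 37.3 to 40.9 CPM in Sertoli libraries. It was called higher in Leydig than in Interstitial (log2 0.41 ± 0.08, adjusted p = 0.00266) and lower in Interstitial than in Sertoli (log2 -0.34 ± 0.08, adjusted p = 0.00447), the second not with library-size scaling alone (adjusted p = 0.0751) or without Interstitial replicate B (adjusted p = 0.0659). An annotated antisense gene covers 1159 of the 3200 exon bases of Jam3, and the sources used here do not say whether reads were counted by strand.

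Cldn15, a cation-pore claudin of the intestine, was also lowest in the Sertoli libraries. It had 3.67, 3.31 and 3.95 CPM in Leydig, 4.73, 4.95 and 4.73 CPM in Interstitial and 0.393, 0.880 and 0.889 CPM in Sertoli libraries. Cldn15 was 5.34-fold higher in Leydig than in Sertoli (log2 2.42 ± 0.31, adjusted p = 0.00032) and 7.31-fold higher in Interstitial than in Sertoli (log2 2.87 ± 0.30, adjusted p = 4.87e-05); without Sertoli replicate B these log2 differences were 3.10 and 3.55. The 6 interstitial progenitor markers, including Nr2f2 and Pdgfra, summed to 1399 to 1560 CPM in Leydig, 1054 to 1102 CPM in Interstitial and 393 to 419 CPM in Sertoli libraries, and all 6 were called higher than Sertoli in both other sorts. The 10 endothelial markers summed to 251 to 289 CPM in Leydig, 263 to 299 CPM in Interstitial and 49.2 to 51.6 CPM in Sertoli libraries. The part of either list in the cadherin and Cldn15 results was not tested.

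The other cadherins stayed under 5 CPM in every population. Cdh17, a cadherin of liver and intestine, ranged from 2.42 to 2.65 CPM in Leydig, 1.29 to 1.96 CPM in Interstitial and 1.29 to 1.50 CPM in Sertoli libraries, and Cdh20 from 1.58 to 2.38, 0.721 to 0.990 and 1.01 to 1.29 CPM in the same order. Both were called higher in Leydig than in each other sort (log2 0.74 ± 0.23 and 1.12 ± 0.28 against Interstitial, 0.76 ± 0.23 and 0.85 ± 0.28 against Sertoli). Each of these calls was lost without Leydig replicate A. Both Cdh17 calls were also lost without Leydig replicate B and with DESeq2 (adjusted p = 0.0921 and 0.111). The Cdh17 call against Interstitial was also lost without Interstitial A, and the Cdh20 call against Interstitial without Interstitial B. Against Sertoli, both calls were also lost without Sertoli A or Sertoli B, and that of Cdh20 with DESeq2 (adjusted p = 0.136). Cdh7, Cdh8, Cdh15 (M-cadherin, known from muscle), Cdh18 and Cdh22 were called lower in Leydig than in Interstitial and higher in Interstitial than in Sertoli at levels of at most 2.20 CPM, and both Cdh18 calls were lost with DESeq2 (adjusted p = 0.241 and 0.200). Cdh18 was also not called between Leydig and Interstitial with no filter or without any single Leydig or Interstitial library, A or B, nor between Interstitial and Sertoli without Interstitial A, Interstitial B or Sertoli B. Cdh12 and Cdh13, the second of which encodes the membrane-anchored T-cadherin, were not called in any comparison. Of the 5 members not tested, Cldn14 and Cldn16 had reads in Interstitial replicates alone (1 and 3 reads in all), Cldn18 and Cldn22 had 1 read each in a Sertoli library, and Cdh9 had between 2 and 9 reads per library. Cldn22 lies entirely inside an exon of Wwc2 on the opposite strand (995 of 995 exon bases).

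Set per kilobase of exon, so that genes of different length can be compared, the 19 listed claudins had a different make-up in each population. Cldn5 is outside the list and enters none of these orders, sums or shares. It had 14.9 to 19.1 CPM in Leydig libraries, where Cldn11 had 15.8 to 18.1 CPM. In Interstitial libraries Cldn5 had 10.4 to 13.0 CPM and in Sertoli libraries 1.08 to 1.97 CPM. In Leydig libraries Cldn11 (8.71 ± 0.40 CPM per kb, SD, n = 2) and Cldn12 (8.60 ± 0.14 CPM per kb) led and did not differ beyond their spread, followed by Cldn15 (1.64 ± 0.12 CPM per kb) and Cldn6 (1.38 ± 0.47 CPM per kb), which also overlapped. In Interstitial libraries the order was Cldn12 (6.24 ± 0.19 CPM per kb), Cldn6 (5.62 ± 0.09 CPM per kb), Cldn4 (5.12 ± 0.10 CPM per kb), Cldn11 (3.04 ± 0.56 CPM per kb) and Cldn7 (2.80 ± 0.30 CPM per kb), of which the last pair overlapped. In Sertoli libraries Cldn11 was first by a wide margin (30.7 ± 2.28 CPM per kb), before Cldn12 (13.6 ± 0.31 CPM per kb) and Cldn6 (3.66 ± 0.03 CPM per kb). Summed over the 19 claudins, the level was 22.0 to 22.9 CPM per kb in Leydig, 30.3 to 31.2 CPM per kb in Interstitial and 49.5 to 52.6 CPM per kb in Sertoli libraries. Cldn11 and Cldn12 together made up 74.9% to 79.6% of this sum in Leydig, 29.8% to 31.9% in Interstitial and 86.4% to 86.9% in Sertoli libraries. The epithelial claudins Cldn3, Cldn4, Cldn6 and Cldn7 together made up 6.41% to 12.7% in Leydig, 46.4% to 50.2% in Interstitial and 7.91% to 8.80% in Sertoli libraries. Both sets join claudins described above as highest in the same sort, so the contrast in shares follows from that grouping. The genes of the second set were not alike: Cldn6 alone made up 6.92%, 7.44% and 6.80% of the sum in Sertoli A, B and C.

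**Figure D4:**
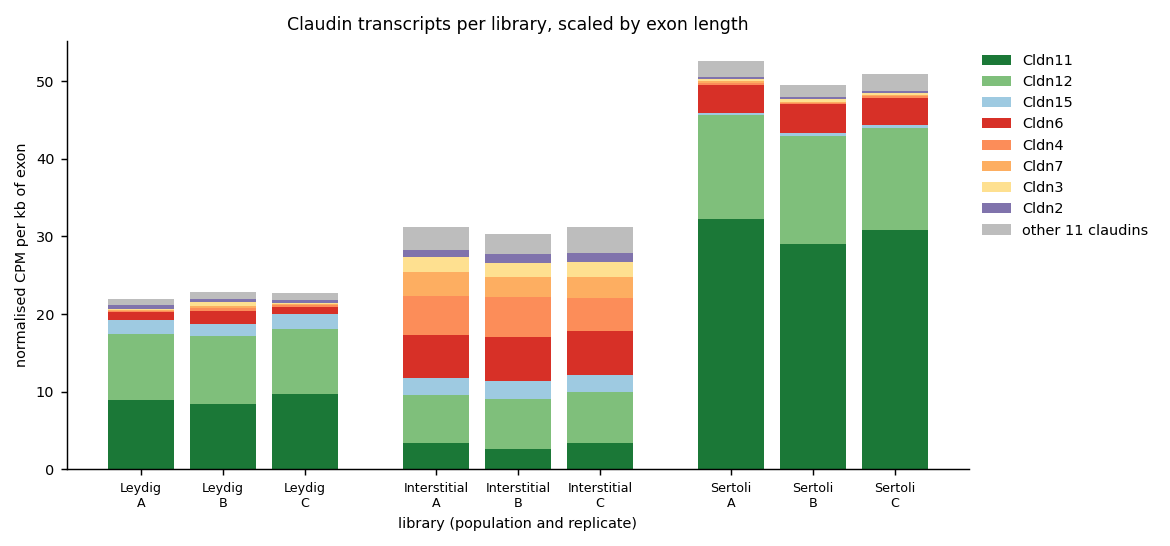
Claudin levels (TMM-scaled CPM per kb of exon) stacked in 1 bar per library in the order Leydig, Interstitial, Sertoli; colours mark 8 claudins and grey the other 11. Cldn11 and Cldn12, at the base, fill 74.9% to 79.6% of the Leydig bars, 29.8% to 31.9% of the Interstitial bars and 86.4% to 86.9% of the Sertoli bars.

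Among the listed cadherins, Cdh11 led per kilobase in Leydig (39.0 ± 4.33 CPM per kb) and Interstitial libraries (37.3 ± 3.25 CPM per kb). Next came Cdh3 (23.8 ± 0.70 and 31.4 ± 0.63 CPM per kb) and Cdh2 (8.04 ± 0.09 and 6.86 ± 0.59 CPM per kb). In Sertoli libraries Cdh3 came first (18.6 ± 0.03 CPM per kb), and Cdh2 (12.8 ± 0.70 CPM per kb), Cdh23 (11.7 ± 0.02 CPM per kb) and Cdh11 (11.4 ± 0.08 CPM per kb) followed, with levels near each other. The 17 cadherins summed to 76.0 to 81.2 CPM per kb in Leydig, 78.9 to 83.4 CPM per kb in Interstitial and 56.1 to 58.0 CPM per kb in Sertoli libraries. The cadherin sum was therefore lowest in the Sertoli sort, where the claudin sum was highest. Cdh11 alone made up 49.6% of the mean cadherin sum in Leydig, 46.0% in Interstitial and 19.8% in Sertoli. Cldn11 made up 38.8%, 9.89% and 60.1% of the mean claudin sum in the same order. Within the list both orders rested on these genes: with Cdh11 left out the Sertoli cadherin sum was not lowest. With Cldn11 left out the Sertoli claudin sum was not highest. Cdh1, Cdh5 and Cdh16 are outside the cadherin sum, as Cldn5 is outside the claudin sum. Cdh5 had 51.0 to 52.9 CPM in Leydig, 29.1 to 42.5 CPM in Interstitial and 10.5 to 11.8 CPM in Sertoli libraries. The order of the sums with these genes added was not examined.

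The same contrasts were examined in 64 other junction genes, of which 62 were tested. Between Leydig and Interstitial 23 were called higher and 21 lower in Leydig (median log2 -0.02), beside 45.1% of all genes called. Between Leydig and Sertoli 13 were higher and 29 lower in Leydig (median -0.20), beside 37.5% of all genes, and between Interstitial and Sertoli 20 were higher and 29 lower in Interstitial (median -0.11), beside 61.8% of all genes. Without Leydig replicate A, 13 were lower in Leydig than in Interstitial, and without Sertoli replicate B, 8 were higher in Leydig than in Sertoli. By class, the 25 tight junction scaffold, polarity and membrane genes had 5 higher and 7 lower in Leydig than in Interstitial, 8 and 10 for Leydig against Sertoli and 11 and 8 for Interstitial against Sertoli. The 19 adherens plaque and nectin genes had 9 and 7, 2 and 9, and 4 and 11 in the same order, the 8 desmosome genes tested had 3 and 4, 0 and 5, and 2 and 5, and the 10 gap junction genes tested had 6 and 3, 3 and 5, and 3 and 5.

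Gjb2, Ctnna3, Gja1 and Dsp were among the largest called changes of these other junction genes. Gjb2, which encodes the gap junction protein connexin-26, averaged 13.7 ± 0.33 CPM in Leydig, 2.10 ± 0.52 CPM in Interstitial and 48.1 ± 3.94 CPM in Sertoli libraries (SD over A and B). Its log2 difference was 2.73 ± 0.15 for Leydig against Interstitial (adjusted p = 5.71e-06), -1.85 ± 0.12 for Leydig against Sertoli (adjusted p = 9.22e-06) and -4.58 ± 0.15 for Interstitial against Sertoli (adjusted p = 5.44e-08). Ctnna3, which encodes an alpha-catenin that links cadherins to actin, averaged 12.2 ± 2.11 CPM in Leydig, 3.19 ± 0.15 CPM in Interstitial and 35.5 ± 1.38 CPM in Sertoli libraries, and Gja1, which encodes connexin-43, averaged 152 ± 4.28, 57.2 ± 4.23 and 342 ± 26.4 CPM in the same order. Both were called in all 3 comparisons. Dsp, which encodes desmoplakin, the desmosomal plaque protein, averaged 85.2 ± 3.80 CPM in Leydig, 50.4 ± 5.07 CPM in Interstitial and 224 ± 5.79 CPM in Sertoli libraries, and was lower in Leydig than in Sertoli by a log2 of -1.43 ± 0.08 (adjusted p = 3.7e-06).

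Other named junction genes were higher in the Interstitial or the Leydig sort. The cadherin-binding plaque protein Arvcf (log2 -1.05 ± 0.09, adjusted p = 5.77e-05) and the adherens junction protein Plekha7 (log2 -0.88 ± 0.11, adjusted p = 0.000392) were lower in Leydig than in Interstitial. Esam, an endothelial adhesion molecule, was higher in Leydig than in Sertoli (log2 2.51 ± 0.22, adjusted p = 3.77e-05), as were the tight junction scaffold Mpdz (log2 1.21 ± 0.06, adjusted p = 3.15e-06) and the tricellular junction gene Ildr2 (log2 1.18 ± 0.08, adjusted p = 1.29e-05). Gjc1, which encodes connexin-45, was higher in Interstitial than in Sertoli (log2 1.55 ± 0.08, adjusted p = 8.93e-07), and so was Esam (log2 1.99 ± 0.22, adjusted p = 7.21e-05).

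The authors' deposited tables list genes with an adjusted p under 0.05 and at least a 2-fold change. The authors' deposited table for Leydig against Interstitial lists 12 of the 42 members, that for Leydig against Sertoli 9, and that for Interstitial against Sertoli 17, all with the sign found here. Of the members called here with at least a 2-fold difference, 12 of 21, 9 of 10 and 17 of 26 are in the authors' deposited tables of those comparisons. Over all genes, those tables list 1823, 1932 and 3512, beside 2755, 2477 and 5028 called here with at least a 2-fold difference. They come from the same series, and every gene in them had the sign found here, so the signs are not particular to the members. The authors' deposited table gives Cldn11 a log2 difference of -1.76 for Leydig against Sertoli, Cdh23 -4.06 for Interstitial against Sertoli and Cldn4 -4.62 for Leydig against Interstitial.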

How the data were processed

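RNA of 9 libraries from 3 sorted populations was sequenced over 4 lanes each after ribosomal depletion with a stranded kit, per the labels' protocols. The deposited table holds unnormalised read counts for every gene in each lane of each library. Per the submitters' processing notes, TopHat2 2.0.6, mm10 and HTSeq were used. The sources used here do not say which annotation was counted or whether strand was used, so overlapping and antisense genes may share reads. The authors also deposited limma tables whose log2 fold changes, average log2 expression, p-values, adjusted p-values and score columns (moderated t and log odds) are named per the file headers; from their values they hold only genes past an adjusted p of 0.05 and a 2-fold change, and which libraries they rest on is not stated. Reads in no gene were 32.23% to 38.52% of a library and ambiguous reads 0.62% to 0.77%; they were left out.

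Lanes were summed. Of 38560 genes, 36638 took symbols and mm10 (GRCm38) coordinates from GENCODE M21 and 34 took symbols from the authors' tables. Replicates A and B of the 3 populations (6 libraries, 3 residual degrees of freedom) were fitted together with edgeR 4.0.16 (R 4.3.3; filterByExpr, TMM, glmQLFit and glmQLFTest; common biological coefficient of variation 0.0871), which tested 18048 genes; the script was checked on simulated counts. Printed CPM use TMM factors over all 9 libraries; means and SD are over A and B; levels per kb use the union of GENCODE exons. Floors of 3 reads cover counting error only. The labels do not say that C is the mixture; of genes that differed over 2-fold between A and B, C lay between them for 83.5% of 813 genes in Leydig, 86.3% of 364 in Interstitial and 77.6% of 504 in Sertoli. The median differences over members were -0.68, 0.10 and 1.66 (Leydig against Interstitial, Leydig against Sertoli, Interstitial against Sertoli) with genes under the floor in 1 population set to it and genes under it in both left out.

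Members with at least 5 CPM in a population and a called difference of at least 2-fold are given in full, other members of at least 5 CPM by range and largest difference, and the rest by range; of the other junction genes of at least 5 CPM in a population, the 3 with the largest called change in each direction and comparison are named, except 1 gene that is not reported here. Values given for rarer members beyond that were chosen after their values were seen. The members, the marker and junction gene lists and the motifs were chosen with earlier results of these data known. Promoter windows are RefSeq's (31 of 42 members in the table used). Alternatives were RLE size factors, DESeq2 1.42.0, no filter, a filter at 1 CPM in 2 libraries, all 9 libraries, the replicate letter as a block, leaving out each library, and, chosen after seeing the data, library-size scaling alone.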

Additional observations from a re-analysis of the deposited data

How the results depend on the processing

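Under all 13 alternatives the total counts of members, of other junction genes and of all genes called stayed within 1.5 times those reported. Counts in 1 direction moved further in 5 fits: members lower in Leydig than in Interstitial fell to 13 with the 1 CPM filter, against 20, other junction genes lower in Leydig than in Interstitial to 13, against 21, without Leydig replicate A, and those higher in Leydig than in Sertoli to 8, against 13, without Sertoli replicate B. Of all genes, 2565 were higher in Leydig than in Interstitial without Interstitial replicate B, against 3966, and 4714 were higher in Leydig than in Sertoli with all 9 libraries, against 3053. Of 78 member calls over the 3 comparisons, 63 held under every setting that tested the gene and 15 were lost under at least 1. Members called ranged from 23 to 28 for Leydig against Interstitial, 15 to 18 for Leydig against Sertoli and 28 to 32 for Interstitial against Sertoli when single libraries were left out, and DESeq2 called 24, 15 and 30. With an arm of 1 library, that library was assumed to vary like the others. Differences that changed sign were not called in any of these fits: Cdh11 between Leydig and Interstitial lay between -0.036 and 0.178 when single libraries were left out, below 0 without Leydig replicate A (-0.036) and Interstitial replicate B (-0.024). Cldn4 between Leydig and Sertoli was -0.103 with all 9 libraries and lay between -1.062 and 0.652 when single libraries were left out, below 0 without Leydig replicate B (-1.062) and Sertoli replicate B (-0.226). The cause was not tested. Library-size scaling alone shifted the median of all genes by -0.06, 0.10 and 0.17 (log2) in the 3 comparisons (Leydig against Interstitial, Leydig against Sertoli, Interstitial against Sertoli). It moved the share of calls that were higher in the population named before from 48.7% to 40.2%, 45.1% to 58.8% and 52.9% to 65.2%, while 28, 17 and 31 members were called. The labels do not say that equal replicate letters mark a pair, and the letters were not treated as pairs: differences between A and B correlated across genes at 0.25 for Leydig with Interstitial, 0.02 for Leydig with Sertoli and 0.10 for Interstitial with Sertoli. With the replicate block 29, 18 and 32 members were called, and 9364, 7839 and 12013 of all genes. With 2 pools per population, members under about 1 CPM rest on few reads.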

Other observations

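Several epithelial members were unevenly spread over the Leydig libraries; these genes were picked after their values were seen. In Leydig replicates A, B and C, Cldn3 had 0.180, 0.605 and 0.135 CPM, Cldn4 0.211, 0.720 and 0.271 CPM, Cldn6 1.80, 2.94 and 1.73 CPM, Cldn7 0.361, 0.605 and 0.379 CPM, and Tjp3 0.421, 1.53 and 0.595 CPM, so that replicate B was highest for each and C lay nearer to A. Ocln, with 0.572, 1.07 and 0.974 CPM, was highest in B with C nearer to B, and Cldn2, with 1.44, 1.15 and 1.27 CPM, was lowest in B. Replicate B also had the highest sums of germ cell markers (219 CPM, with 53.2 CPM in A and 99.5 CPM in C), mesonephric markers (16.6 CPM, with 8.51 CPM in A and 11.3 CPM in C) and erythroid markers (533 CPM, with 151 CPM in A and 229 CPM in C). The macrophage sum was also highest in B (22.7 CPM, with 12.6 CPM in A and 13.9 CPM in C). The same held for the endothelial sum (289 CPM, with 251 CPM in A and 257 CPM in C) and for the neuron and glia and skeletal muscle sums. Other sums were lowest in B, among them mesothelial markers (125 CPM, with 136 CPM in A and 131 CPM in C). So were interstitial progenitor markers (1399 CPM, with 1560 and 1550 CPM in A and C) and fetal Leydig markers (236 CPM, with 447 and 380 CPM). The part of these markers in the levels of the members was not tested.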
